A study of Mus musculus with 8 samples.

Results

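The transcripts described here encode 10 enzymes of serine synthesis, one-carbon metabolism, glycine breakdown, transsulfuration and asparagine synthesis: Phgdh, Psat1, Psph, Shmt1, Shmt2, Mthfd2, Gldc, Cbs, Cth and Asns. Members were taken by name, as every probe set whose gene symbol in the array's annotation is one of these 10 and no other gene. This gave 23 probe sets of 10 genes, out of 45037 probe sets that were not controls and 18193 genes with a probe set of their own. All 23 member probe sets passed the filter on low signals, which 27022 of the 45037 probe sets passed. Another 2 probe sets, which the annotation assigns to Phgdh together with the predicted genes Gm8096 or Gm6756, were not used.

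RNA was measured on mouse Affymetrix expression arrays in 4 groups of 2 arrays. All 4 groups carried a GFP reporter for Aid, the gene of activation-induced cytidine deaminase, which B cells use for class switching and hypermutation. The spleen GFP-positive and spleen GFP-negative groups were splenic B cells stimulated with LPS, a bacterial lipopolysaccharide, and the cytokine IL4. The BCR-ABL1 GFP-positive and BCR-ABL1 GFP-negative groups were cells with BCR-ABL1, a fusion tyrosine kinase of leukaemia, from a source the labels call BM, read here as bone marrow. The question was which transcripts differ between reporter-positive and reporter-negative cells. The labels give no strain, age or sex of the animals, no purification step and no time of stimulation. They also do not say how BCR-ABL1 was introduced, whether its cells were 1 clone, or whether the 2 arrays of a group came from separate animals or cultures, so p-values measure the spread between arrays, which may be technical.

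Trimmed mean signals of the deposited values were 591 to 596 on 6 arrays, and 499.7 and 479 on the spleen GFP-negative arrays. The 3' to 5' signal ratio of the Gapdh control probe sets was 1.40 and 1.48 on the spleen GFP-positive arrays, 1.93 and 1.88 on the spleen GFP-negative arrays, and 1.41 to 1.47 on the BCR-ABL1 arrays. B cell markers were present in all 4 groups, with at least 6 of 7 above the filter value in each. The spleen GFP-negative arrays also carried transcripts of other cell types. The summed signal of 12 myeloid markers was 622 to 627 on the spleen GFP-positive arrays, 78472 to 80042 on the spleen GFP-negative arrays, 1045 to 1109 on the BCR-ABL1 GFP-positive arrays and 857 to 961 on the BCR-ABL1 GFP-negative arrays, and 10 of 10 tested markers were called lower in spleen GFP-positive cells. For 10 T and NK cell markers the sums were 703 to 723, 19150 to 20685, 5811 to 5847 and 4753 to 4787 in the same 4 groups. Of these, 9 of 9 tested were called lower in spleen GFP-positive cells, and 31.3% of all genes were. Markers could pass the filter on mean signal through the spleen GFP-negative arrays alone, so both counts were partly fixed beforehand. In that group 11 of 12 myeloid and 9 of 10 T and NK cell markers were above the filter value, against 4 and 3 in spleen GFP-positive cells. Camp, Csf1r, Ngp and Cd3g, which mark granulocytes, macrophages and T cells, were at the floor on both spleen GFP-positive arrays. Since both arrays of the spleen GFP-negative group carried these markers, no value of the spleen comparison can be given without them.

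Cells make serine from the glycolytic intermediate 3-phosphoglycerate in the steps catalysed by Phgdh, Psat1 and Psph. Serine hydroxymethyltransferases then split serine into glycine and a one-carbon unit carried by folate, which feeds purine and thymidylate synthesis. Serine also gives its carbon skeleton to cysteine through transsulfuration, in which Cbs joins it to homocysteine and Cth releases cysteine. Several of these genes, with the asparagine synthetase gene Asns, are known targets of the transcription factor ATF4, which is translated when amino acids are short or the endoplasmic reticulum is stressed. Dividing lymphocytes are known to draw on serine and one-carbon units for nucleotide synthesis.

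In stimulated spleen cells the GFP-positive fraction had higher signals for 9 of the 10 enzymes. Asns was 11.6-fold higher, Psat1 3.9-fold, Psph 3.16-fold and Mthfd2 2.52-fold, and Cth, which was at the floor in GFP-negative cells, was at least 67.4-fold higher. After a shift of the arrays to the same median, in place of quantile normalization, the log2 differences of Asns and Psph were 4.19 and 2.29, against 3.54 ± 0.066 and 1.66 ± 0.075 here. The exception was Cbs, whose brightest probe set did not pass the test. By limma on all 8 arrays, 22 of 23 member probe sets were called higher in spleen GFP-positive cells at an adjusted p under 0.05, 0 were called lower and 1 was not called. Of all 27022 tested probe sets, 44.9% were called higher and 33.3% lower in the same comparison, so a call by itself was common. Taking the brightest probe set of each gene, 9 of 10 members were called higher, against 45.6% of 12223 genes called higher and 31.3% called lower. The median log2 difference was 1.53 over the member probe sets and 0.17 over all tested probe sets. That overall median was 0.35 on the deposited scale and 0.50 when arrays were shifted to the same median, and the share of higher calls among all calls was 57.4% after quantile normalization, 64.8% on the deposited scale and 70.5% after the median shift. The members kept 22 higher and 0 lower calls under both of these scalings, with medians of 1.74 and 1.90. In bulk samples, fewer cells of a type and less RNA per cell cannot be told apart.

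In BCR-ABL1 cells no member was called between GFP-positive and GFP-negative cells at the same threshold. Of the 23 member probe sets, 0 were called higher and 0 lower by limma, and 2 had an unadjusted p under 0.05. Over all tested probe sets 1.57% were called higher and 1.23% lower, and over genes 2.31% and 1.78%. With 23 probe sets, a count of 0 lies near that background. The median log2 difference was -0.043 over the members and -0.0023 over all tested probe sets. The smallest p that an exact permutation test could give with 2 arrays against 2 is 0.333, so all calls rest on the model fitted across probe sets.

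**Figure D1:**
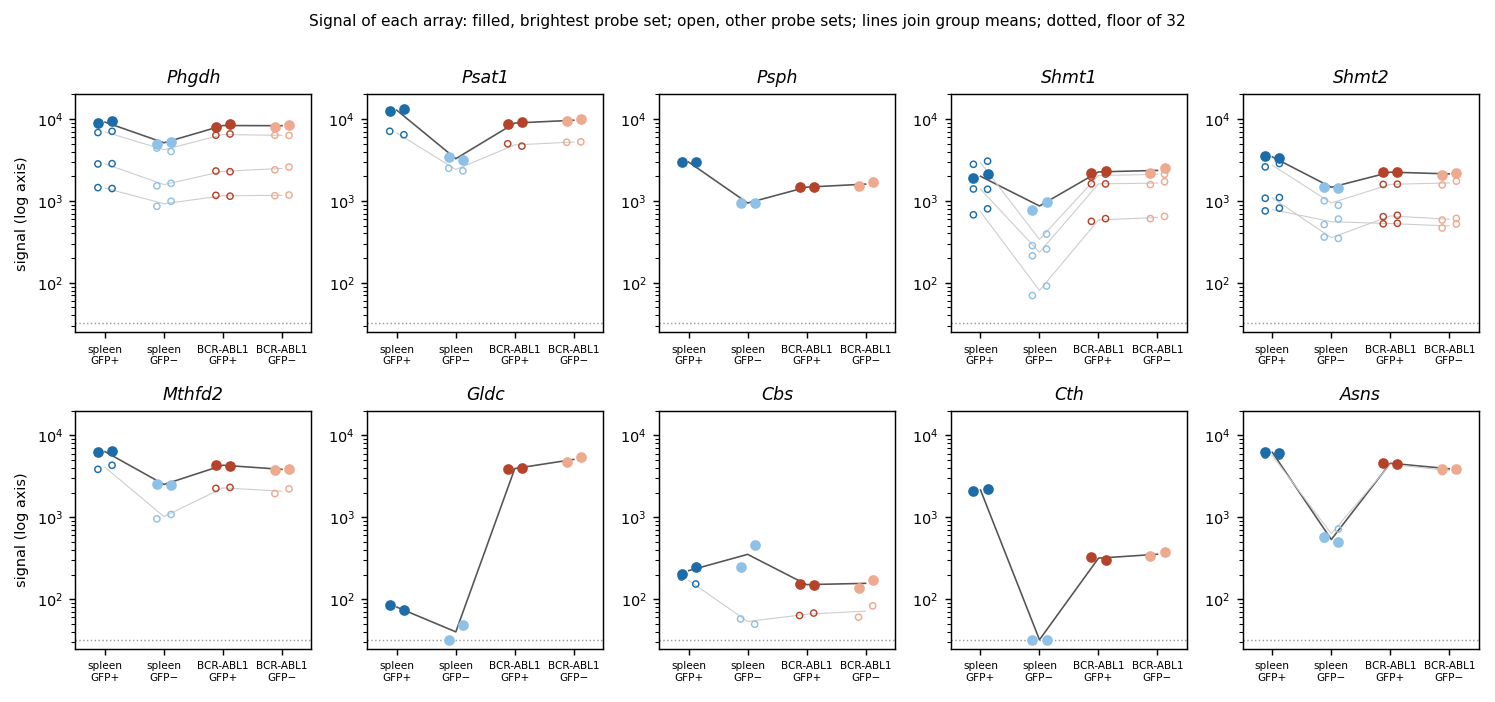
Signal of each member on each array, on a log axis, by group; filled points are the brightest probe set, open points its other probe sets, lines join group means and the dotted line is the floor of 32. Filled points of the spleen GFP-negative arrays lie below those of the spleen GFP-positive arrays for all members except Cbs, Cth lies at the floor there, and Gldc is high on the 4 BCR-ABL1 arrays.

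The 3 enzymes of serine synthesis were each higher in spleen GFP-positive cells. Phgdh, 3-phosphoglycerate dehydrogenase, catalyses the first step. Its brightest probe set, 1454714_x_at, gave signals of 8940.0 and 9361 on the spleen GFP-positive arrays and 4939 and 5306 on the spleen GFP-negative arrays, and 8067 and 8558 on the BCR-ABL1 GFP-positive arrays and 8083 and 8458 on the BCR-ABL1 GFP-negative arrays. The spleen groups were apart and the BCR-ABL1 groups overlapped. The log2 difference was 0.84 ± 0.050 (± SE, 1.79-fold, adjusted p = 1.75e-06) in spleen cells and 0.0070 ± 0.050 (95% interval -0.11 to 0.12, adjusted p = 1) in BCR-ABL1 cells. All 4 Phgdh probe sets were called higher in spleen GFP-positive cells, with log2 differences of 0.64 to 0.84. The names of all 4 end in _x_at, so each can detect related transcripts too.

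Psat1, phosphoserine aminotransferase, moves an amino group from glutamate onto the serine precursor. Signals of its probe set 1451064_a_at were 12438 and 13107 in spleen GFP-positive cells and 3386 and 3158 in spleen GFP-negative cells, and 8692 and 9129 in BCR-ABL1 GFP-positive cells and 9331 and 9971 in BCR-ABL1 GFP-negative cells. No groups overlapped, although the BCR-ABL1 groups lay close together, with the GFP-negative arrays above. In spleen cells Psat1 rose by 1.97 ± 0.052 on the log2 scale (adjusted p = 3.7e-08), and its second probe set rose by 1.48. In BCR-ABL1 cells the difference of -0.11 ± 0.052 did not pass the test (95% interval -0.24 to 0.0063, adjusted p = 0.473). Psph, phosphoserine phosphatase, completes the route to serine. It had 1 probe set, with 3010.0 and 2946 in spleen GFP-positive and 949 and 935 in spleen GFP-negative cells, and 1463 and 1479.8 in BCR-ABL1 GFP-positive and 1502 and 1702 in BCR-ABL1 GFP-negative cells. The spleen GFP-positive arrays were the highest by a wide margin. The log2 difference was 1.66 ± 0.075 in spleen cells (adjusted p = 4.06e-07) and -0.12 ± 0.075 in BCR-ABL1 cells (95% interval -0.29 to 0.054, adjusted p = 0.697).

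Shmt1 and Shmt2 encode the cytosolic and mitochondrial serine hydroxymethyltransferases, and Mthfd2 the mitochondrial enzyme that oxidises the folate-bound carbon unit next. For Shmt1, the probe set 1425177_at gave 1881 and 2111 in spleen GFP-positive and 769 and 965 in spleen GFP-negative cells, and 2190.0 and 2326 in BCR-ABL1 GFP-positive and 2166 and 2544 in BCR-ABL1 GFP-negative cells. Spleen GFP-negative cells were lowest and the BCR-ABL1 groups overlapped. Shmt1 rose by 1.21 ± 0.13 in spleen cells (adjusted p = 4.11e-05) and differed by -0.057 ± 0.13 in BCR-ABL1 cells (95% interval -0.35 to 0.24, adjusted p = 1). Its 4 probe sets differed in the size of the spleen difference more than those of any other member whose probe sets all passed: 2.31-fold for the brightest and 5.92, 8.74 and 9.21-fold for the others. The dimmest, 1422198_a_at, gave 676 and 799.7 in spleen GFP-positive cells and 69.9 and 91.3 in spleen GFP-negative cells. After a median shift in place of quantile normalization, the brightest probe set's spleen difference was 1.87 on the log2 scale.

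Shmt2 was measured by 4 probe sets, all called higher in spleen GFP-positive cells, with log2 differences of 0.50 to 1.62. The brightest, 1455084_x_at, gave 3523 and 3364 in spleen GFP-positive and 1482 and 1449.8 in spleen GFP-negative cells, and 2244 and 2240.0 in BCR-ABL1 GFP-positive and 2075 and 2194 in BCR-ABL1 GFP-negative cells. Its spleen difference was 1.23 ± 0.058 (adjusted p = 4.88e-07), and its BCR-ABL1 difference was 0.072 ± 0.058 (95% interval -0.062 to 0.21, adjusted p = 0.83). For Mthfd2, 1419253_at gave 6281 and 6383 in spleen GFP-positive and 2538 and 2493 in spleen GFP-negative cells, and 4349 and 4288 in BCR-ABL1 GFP-positive and 3754 and 3941 in BCR-ABL1 GFP-negative cells. Within each source, both GFP-positive arrays of Mthfd2 were above both GFP-negative arrays. The spleen difference was 1.33 ± 0.044 (adjusted p = 9e-08), and 2.00 for the second probe set. The BCR-ABL1 difference, 0.17 ± 0.044 with a 95% interval of 0.066 to 0.27, had an adjusted p of 0.117, and its unadjusted p of 0.00537 was 1 of the 2 under 0.05. With array weights that adjusted p was 0.0306.

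Gldc encodes glycine decarboxylase, the subunit of the mitochondrial glycine cleavage system that takes carbon dioxide off glycine. Its level in the BCR-ABL1 groups was far from that in the spleen groups. Its single probe set, 1416049_at, gave 85.3 and 74.8 in spleen GFP-positive cells and 32 and 47.9 in spleen GFP-negative cells, the lower of which is the floor, and 3849.7 and 4032 in BCR-ABL1 GFP-positive cells and 4772 and 5395 in BCR-ABL1 GFP-negative cells. Every BCR-ABL1 array was far above every spleen array, and within BCR-ABL1 cells both GFP-negative arrays were above both GFP-positive arrays. The spleen difference was 1.03 ± 0.19 (adjusted p = 0.00109), between signals close to the floor, and became 0.32 (adjusted p = 0.0243) with a floor of 64. The BCR-ABL1 difference of -0.36 ± 0.19 did not pass the test (95% interval -0.80 to 0.067, adjusted p = 0.559).

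The transsulfuration enzymes gave the largest and the least settled of the spleen differences. Cth, cystathionine gamma-lyase, makes cysteine from cystathionine. Its probe set 1426243_at gave 2089.6 and 2227 in spleen GFP-positive cells and was at the floor of 32 on both spleen GFP-negative arrays, and gave 331 and 303 in BCR-ABL1 GFP-positive and 332 and 376 in BCR-ABL1 GFP-negative cells. Cth thus had a clear signal in 3 of the 4 groups. In spleen cells it was at least 67.4-fold higher in GFP-positive cells (log2 difference at least 6.08, adjusted p = 1.59e-08), a bound that moves with the floor. In BCR-ABL1 cells it differed by -0.16 ± 0.12 (95% interval -0.44 to 0.12, adjusted p = 0.804).

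Cbs, cystathionine beta-synthase, acts just before Cth, and its 2 probe sets differed in direction in spleen cells. The brighter, 1425623_a_at, gave 201 and 246 in spleen GFP-positive and 249.9 and 456 in spleen GFP-negative cells, and 153 and 148 in BCR-ABL1 GFP-positive and 139 and 174 in BCR-ABL1 GFP-negative cells. The spleen groups nearly touched, since 1 GFP-negative array was far above the other. Its spleen difference of -0.60 ± 0.27 did not pass the test (95% interval -1.23 to 0.027, adjusted p = 0.0726). Without spleen GFP-negative replicate 1 that value was -1.04 (adjusted p = 0.0071), without spleen GFP-negative replicate 2 it was -0.17, and after the median shift it was -0.055. With the replicate number as a block, the difference of -0.60 was called (adjusted p = 0.0227). The other probe set, 1423844_s_at, gave 187 and 153 in spleen GFP-positive and 57.4 and 49.5 in spleen GFP-negative cells, and 63.3 and 67.8 in BCR-ABL1 GFP-positive and 60.4 and 82.9 in BCR-ABL1 GFP-negative cells. Here the spleen GFP-positive arrays were the highest, and the spleen difference was 1.67 ± 0.19 (adjusted p = 6.56e-05). Neither probe set was called between the BCR-ABL1 groups, with adjusted p of 1 and 0.988. Which probe set follows the Cbs transcript was not tested, and no direction is given for Cbs in spleen cells.

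Asns makes asparagine from aspartate and glutamine. It gave signals of 6276 and 6155 in spleen GFP-positive and 568 and 503 in spleen GFP-negative cells, and 4648 and 4494 in BCR-ABL1 GFP-positive and 3893 and 3928 in BCR-ABL1 GFP-negative cells. The spleen GFP-negative arrays stood apart from the 6 others, and both BCR-ABL1 GFP-positive arrays were above both BCR-ABL1 GFP-negative arrays. In spleen cells Asns rose by 3.54 ± 0.066 on the log2 scale (11.6-fold, adjusted p = 1.52e-08), and its second probe set, 1433966_x_at, was 9.08-fold higher. In BCR-ABL1 cells the differences were 0.22 ± 0.066 (95% interval 0.073 to 0.38, adjusted p = 0.167) and 0.26 ± 0.11 (adjusted p = 0.434). The first of these was called with array weights (adjusted p = 0.0180) and when either spleen GFP-negative array was left out (adjusted p = 0.0384), so its call depended on how the spread was estimated.

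**Figure D2:**
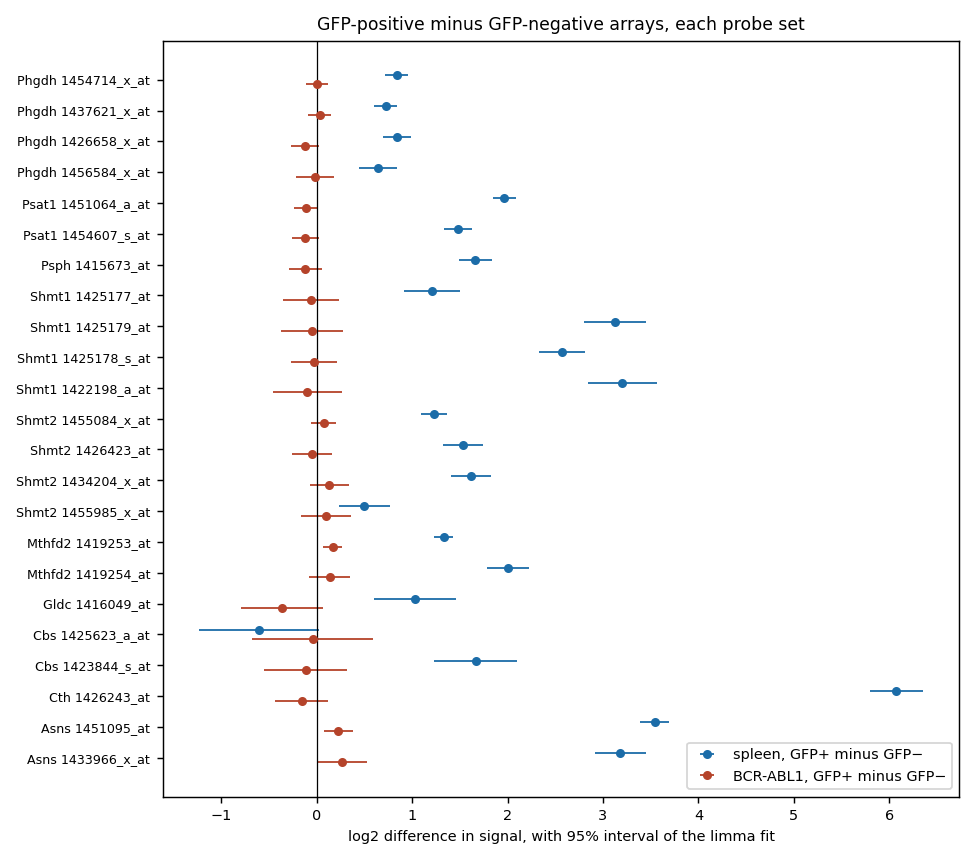
Log2 difference between GFP-positive and GFP-negative arrays for each of the 23 member probe sets, with 95% intervals of the limma fit; spleen cells in blue and BCR-ABL1 cells in red. In spleen cells all but the brighter Cbs probe set lie to the right of 0, and in BCR-ABL1 cells the points run from -0.36 to 0.26.

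The GFP effect itself differed between the sources for most members. The difference between the effects, spleen minus BCR-ABL1, was called for 21 of 23 member probe sets, all with the larger value in spleen cells, against 40.3% of all tested probe sets called in that direction and 29.5% in the other. It was 6.23 ± 0.17 for Cth, where the spleen effect is a bound, 3.32 ± 0.093 for Asns, 2.08 ± 0.074 for Psat1 and 1.78 ± 0.11 for Psph. For the folate enzymes it was 1.27 ± 0.18 for Shmt1, 1.16 ± 0.062 for Mthfd2 and 1.16 ± 0.082 for Shmt2. For Phgdh it was 0.83 ± 0.071, the smallest of the called values among the brightest probe sets. The 2 probe sets not called were the brighter one of Cbs (-0.56 ± 0.38, adjusted p = 0.224) and 1455985_x_at of Shmt2 (0.40 ± 0.16, adjusted p = 0.0568).

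GFP-positive cells of the 2 sources also differed in most of these transcripts, and Gldc was the only member called higher in BCR-ABL1 cells. This comparison uses the same spleen GFP-positive arrays as the GFP effect in spleen. In BCR-ABL1 GFP-positive cells, 16 of 23 member probe sets were called lower than in spleen GFP-positive cells, 1 was called higher and 6 were not called, against 21.6% of all tested probe sets called lower and 22.4% called higher. The median log2 difference was -0.52 over the members and -0.026 over all tested probe sets. Gldc, at 3849.7 and 4032 in BCR-ABL1 GFP-positive cells and 85.3 and 74.8 in spleen GFP-positive cells, was 49.3-fold higher (5.62 ± 0.19, adjusted p = 1.91e-07). Cth, at 331 and 303 in BCR-ABL1 GFP-positive cells and 2089.6 and 2227 in spleen GFP-positive cells, was 6.81-fold lower (-2.77 ± 0.12, adjusted p = 8.86e-07). These were the farthest apart of the members, in opposite directions.

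The other called members were lower in BCR-ABL1 GFP-positive cells by smaller amounts. Psph differed by -1.02 ± 0.075, Shmt2 by -0.62 ± 0.058, Mthfd2 by -0.55 ± 0.044, Psat1 by -0.52 ± 0.052 and Asns by -0.44 ± 0.066, with adjusted p of 0.00092 or less. Both probe sets of Psat1, Mthfd2 and Asns and all 4 of Shmt2 were called. Phgdh lay near the threshold: its brightest probe set differed by -0.14 ± 0.050 (adjusted p = 0.0562) and 2 of its 4 probe sets were called. For Shmt1 the brightest probe set differed by 0.18 ± 0.13 (adjusted p = 0.296), and 1 of 4 was called, 1425179_at at -0.52 ± 0.14. For Cbs the brighter probe set was not called (-0.56 ± 0.27, adjusted p = 0.137) and the other was (-1.37 ± 0.19, adjusted p = 0.000599). Markers of early B cell stages moved with this comparison. Their summed signal was 28581 to 29335 on the BCR-ABL1 GFP-positive arrays and 979 to 1371 on the spleen GFP-positive arrays. Of 5 tested, 4 were called higher. These markers could pass the filter through the BCR-ABL1 arrays alone, so this count was partly fixed beforehand. In BCR-ABL1 GFP-positive cells 5 were above the filter value, against 2 in spleen GFP-positive cells. Dntt and Vpreb1 differed by 7.42 ± 0.12 and 6.27 ± 0.097, and Rag1 and Rag2 were at the floor on both spleen GFP-positive arrays. Igll1 was the 1 called lower (-0.63 ± 0.21), a call lost on the deposited scale. Of 7 tested B cell markers, 4 were called higher and 3 lower. Ms4a1 and Cd22, among the lower ones, differed by -7.60 ± 0.18 and -4.82 ± 0.094, with Ms4a1 at the floor on 1 BCR-ABL1 GFP-positive array. The higher ones were Blk, Ebf1, Pax5 and Cd79a. The myeloid marker Lyz2 differed by 2.72 ± 0.17. Of 10 tested myeloid markers, 2 were called higher and 1 lower, with a median of -0.020. Few calls and a median near 0 were partly fixed beforehand by the floor. Of 12 myeloid markers, 8 were at the floor on both BCR-ABL1 GFP-positive arrays and 5 on both spleen GFP-positive arrays. Of 9 tested T and NK cell markers, 3 were called higher and 2 lower, but only 3 of 10 were above the filter value in each GFP-positive group. Over all genes 24.1% were called higher and 24.6% lower. The part of B cell stage in the differences of the enzymes was not tested.

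**Figure D3:**
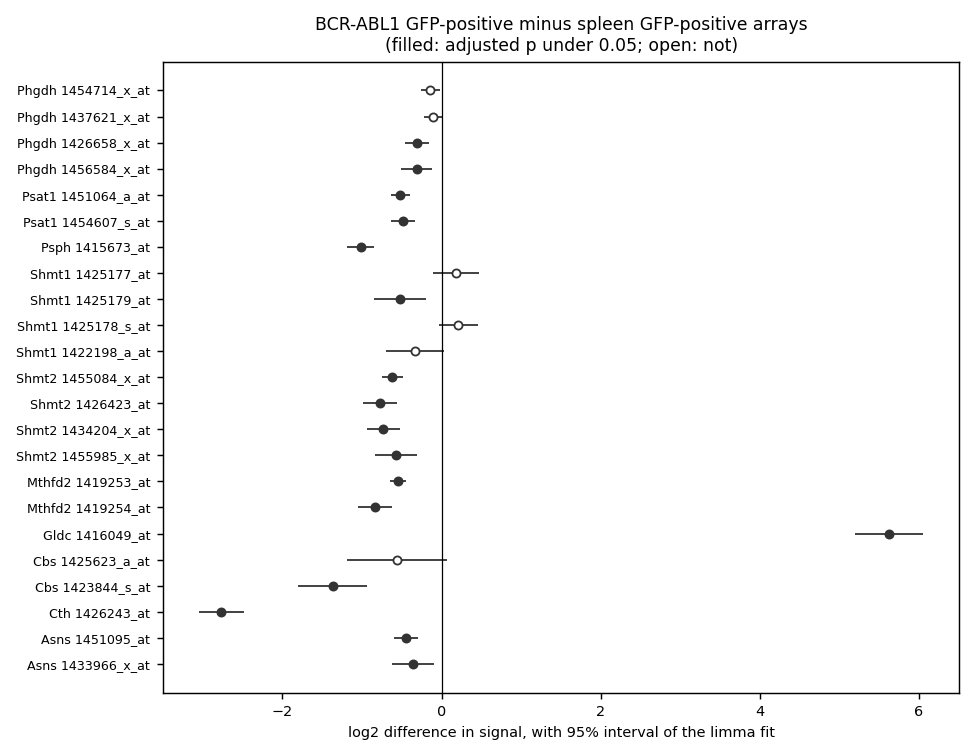
Log2 difference of BCR-ABL1 GFP-positive arrays from spleen GFP-positive arrays for each member probe set, with 95% intervals of the limma fit; filled points have an adjusted p under 0.05. Gldc lies at 5.62, Cth at -2.77, and the other probe sets lie between -1.37 and 0.21.

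By the brightest probe set of each member, the spleen GFP-positive group had the highest mean signal for 7 of the 10 members and the spleen GFP-negative group the lowest for 9. Gldc and Shmt1 were highest in BCR-ABL1 GFP-negative cells, and the brighter Cbs probe set in spleen GFP-negative cells. Other probe sets gave another order: 1425179_at and 1422198_a_at of Shmt1 and 1423844_s_at of Cbs were highest in spleen GFP-positive cells. Neighbouring groups in these orders overlapped in 3 cases: the BCR-ABL1 groups of Phgdh, Shmt1 and Cbs. All other neighbours were apart on these 2 arrays each, although the BCR-ABL1 groups did not pass the test for any member.

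The shape of the signal over the 8 arrays was compared between genes as the root mean square difference of log2 values, each gene centred on its own mean, a description with no test. Among members, Shmt2 and Mthfd2 were the closest pair, at 0.064, and Psph and Shmt2 followed at 0.17. Of 12213 other genes, Idi1, which isomerises isopentenyl diphosphate in sterol synthesis, was the closest to both Mthfd2 (0.028) and Shmt2 (0.059). The mitochondrial ribosomal protein gene Mrpl47 was closest to Phgdh (0.027), Mycbp to Psat1 (0.053), the copper transporter gene Slc31a1 to Psph (0.073) and Ppp1r14b to Shmt1 (0.073). Tyw3, of tRNA wybutosine synthesis, was closest to Asns (0.097), and Obsl1 to the brighter Cbs probe set (0.090). Gldc and Cth lay farther from their nearest genes, Epb41l4b (0.27) and the ubiquitin ligase gene Siah2 (0.42), but also ranged more widely over the arrays. As a share of the member's own range, the distance to the nearest gene was 3.69% for Gldc and 6.94% for Cth, and 2.06% to 5.24% for the other members. The genes after Epb41l4b for Gldc were Tgfb3 and Pgf, both at 0.37.

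Genes around the members in the pathway were read from lists that named them by role. In the folate cycle list, 15 of 20 genes were tested, 11 of which were called higher and 2 lower in spleen GFP-positive cells, with a median log2 difference of 0.93. Over all 12223 genes 45.6% were called higher and 31.3% lower, with a median of 0.18. The 9 lists together held 132 distinct tested genes, of which 78.8% were called higher and 10.6% lower. Mtr, methionine synthase, rose by 2.46 ± 0.24, with 355 and 357 in spleen GFP-positive cells and 48.5 and 86.4 in spleen GFP-negative cells, and Slc25a32, the mitochondrial folate carrier, rose by 2.34 ± 0.085. Mthfd2l, the close relative of Mthfd2, was at the floor in spleen GFP-negative cells and at least 2.95-fold higher in GFP-positive cells. Aldh1l1, which burns off one-carbon units as carbon dioxide, went the other way, with 52.7 and 71.6 in spleen GFP-positive and 662 and 976 in spleen GFP-negative cells (-3.71 ± 0.22). Mthfs and Ftcd were not called, at -0.11 ± 0.17 and 0.25 ± 0.14.

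Of the 16 genes listed for glycine cleavage and serine use, 11 were tested, 5 were called higher and 2 lower, with a median of 0.068. That count of higher calls lay near the 45.6% of all genes. Dld and Gcsh, which encode partners of Gldc in the glycine cleavage system, rose by 1.59 ± 0.21 and 0.73 ± 0.057. Ptdss2, which makes phosphatidylserine, rose by 2.16 ± 0.17, and Glyctk was at least 2.54-fold higher against the floor. Ptdss1 and Sptlc1, which also use serine for lipids, were not called, at 0.068 ± 0.066 and -0.0082 ± 0.10. This list was the most open to scaling, with 8 higher and 1 lower on the deposited scale and 9 higher and 1 lower after the median shift, where Serinc5 changed sign.

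In the methionine cycle list, 12 of 17 genes were tested, 7 were called higher and 3 lower (45.6% and 31.3% over all genes), and the median was 0.24. Srm, spermidine synthase, had 5725 and 5859.8 in spleen GFP-positive and 1427 and 1505 in spleen GFP-negative cells and rose by 1.98 ± 0.053. Enoph1 and Mtap, of methionine salvage, rose by 2.16 ± 0.23 and 1.44 ± 0.044, while Bhmt, the betaine-dependent methyltransferase known from liver, fell to 40.9 and 50.3 in spleen GFP-positive cells, against 1498 and 1133 in spleen GFP-negative cells. Adi1 and Gnmt were not called. In the list for cysteine, sulfide and glutathione, 17 of 20 genes were tested, 13 were called higher and 2 lower, and the median was 0.53. Chac1, which degrades glutathione, had 717 and 591 in spleen GFP-positive and 63.9 and 40.4 in spleen GFP-negative cells (12.8-fold), and its relative Chac2 was at least 6.87-fold higher against the floor. Mpst, which moves sulfur from 3-mercaptopyruvate, rose by 2.38 ± 0.11. Sqor, the mitochondrial sulfide oxidiser, fell to 38.2 and 46.9 in spleen GFP-positive cells, against 1418 and 1335 in spleen GFP-negative cells. Gclc, which starts glutathione synthesis, was not called (-0.16 ± 0.14), nor was Csad.

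The lists for other amino acids and for purines showed higher signals in most of the tested genes. Over all genes 45.6% were called higher and 31.3% lower, with a median of 0.18. For other amino acids, 13 of 17 genes were tested, 12 were called higher and 1 lower, with a median of 0.94. Bcat1, the cytosolic branched-chain aminotransferase, had 5421 and 5307 in spleen GFP-positive and 575 and 642 in spleen GFP-negative cells (8.83-fold). Gpt2 and Pycrl rose by 1.53 ± 0.16 and 1.23 ± 0.093. Prodh, which is in this list but breaks proline down, rose by 1.12 ± 0.16. Its signals were low, with 100.2 and 96.6 in spleen GFP-positive and 38.7 and 52.8 in spleen GFP-negative cells. For purines, 12 of 13 were tested, 10 were called higher and 1 lower, with a median of 0.81. Atic and Gart, which use folate-bound one-carbon units, were 2.8-fold and 2.46-fold higher, and Adsl 2.69-fold, while Adssl1 differed by -1.07 ± 0.18, a call lost after the median shift, and Adss was not called (-0.065 ± 0.094).

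ATF4 response genes moved both ways in spleen cells, with 10 of 16 tested genes called higher and 3 lower, of 18 listed, and a median of 0.43, against the same 45.6% and 31.3% over all genes. Trib3, a pseudokinase that feeds back on ATF4, had 701 and 725 in spleen GFP-positive and 58.9 and 66.8 in spleen GFP-negative cells (11.4-fold), and Atf5 rose by 3.35 ± 0.18. Vldlr, the very low density lipoprotein receptor, fell to 123 and 103 in spleen GFP-positive cells, against 1998 and 1924 in spleen GFP-negative cells. Herpud1 and Cebpg were not called, at 0.15 ± 0.061 and 0.045 ± 0.061. Singled out after their values were seen, Atf4 itself differed by 0.13 ± 0.044 (adjusted p = 0.0246), and Ddit3, which encodes CHOP, by -0.43 ± 0.090 (adjusted p = 0.00263), which changed sign after the median shift. The cytosolic aminoacyl-tRNA synthetases, many of which are ATF4 targets, were called higher in 18 of 18 tested of 20 listed, with a median of 0.90. Their largest values were 1.79 ± 0.089 for Yars, 1.28 ± 0.094 for Eprs and 1.17 ± 0.10 for Vars.

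Mitosis genes moved with these lists. All 19 tested of 20 listed were called higher in spleen GFP-positive cells, against 45.6% of all genes called higher and 31.3% lower. Their median was 3.56, and their summed signal was 66730 to 68645 on the spleen GFP-positive arrays and 6818 to 7583 on the spleen GFP-negative arrays. The spindle checkpoint kinase gene Bub1 had 2944 and 2930.4 in spleen GFP-positive and 60.3 and 34.3 in spleen GFP-negative cells, and Cenpf was at least 34.8-fold higher against the floor. In BCR-ABL1 cells the sums were 73558 to 73610 in GFP-positive and 71094 to 71944 in GFP-negative cells. There 0 of 19 were called, near the 2.31% of all genes called higher and 1.78% lower. The part of dividing cells, and of the myeloid, T and NK cell transcripts above, in the spleen differences of the enzymes was not tested.

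In BCR-ABL1 cells the 132 genes of the lists gave 4 calls, 1.52% higher and 1.52% lower, against 2.31% and 1.78% over all genes, so the count lay near or under that background and the 4 are given as values. Trib3 had 994 and 1033 in BCR-ABL1 GFP-positive and 609 and 658 in BCR-ABL1 GFP-negative cells and rose by 0.68 ± 0.11 (adjusted p = 0.0206). Asl, argininosuccinate lyase, rose by 0.43 ± 0.085 (adjusted p = 0.0415), a call lost after the median shift. Gsr, glutathione reductase, fell to 4695 and 4641 in BCR-ABL1 GFP-positive cells, against 5686 and 5603 in BCR-ABL1 GFP-negative cells (-0.27 ± 0.038, adjusted p = 0.00952), and it also fell in spleen GFP-positive cells (-1.47 ± 0.038). Vldlr fell by 0.77 on the log2 scale (adjusted p = 0.0357), with 68.6 and 79.5 in BCR-ABL1 GFP-positive and 120.3 and 131 in BCR-ABL1 GFP-negative cells. Cell type markers also moved with GFP in BCR-ABL1 cells: Ms4a1 and Cd22, 2 of 7 B cell markers tested, were lower (-3.73 ± 0.18 and -1.77 ± 0.094), Rag1 and Rag2, 2 of 5 markers of early B cell stages, were 2.82-fold and 1.65-fold higher, and Klrd1, 1 of 9 T and NK cell markers, was 1.71-fold higher. Their part in the values of these genes was not tested.

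Between the GFP-positive groups, several lists had more lower than higher calls, like the members. In BCR-ABL1 GFP-positive cells 15 of 18 synthetases were called lower than in spleen GFP-positive cells and 0 higher, with a median of -0.38, and 10 of 16 ATF4 response genes were called lower and 3 higher, with a median of -0.82, against 24.6% of all genes called lower and 24.1% higher. Atf3 and Atf5 were among the lower ones, at -2.76 ± 0.20 and -1.78 ± 0.18, and Trib3 among the higher, at 0.51 ± 0.11. In the lists for other amino acids and the methionine cycle, 7 of 13 and 7 of 12 were called lower and 1 of each higher, with medians of -0.23 and -0.26. Folate cycle genes were called lower in 5 of 15 and higher in 2, and those for cysteine, sulfide and glutathione lower in 5 of 17 and higher in 4. Purine synthesis, with 4 of 12 called higher and 3 lower, lay near the shares over all genes. For glycine cleavage and serine use 4 of 11 were called higher and 1 lower, and for mitosis 6 of 19 and 1. On the deposited scale these higher calls were 3 for glycine cleavage and serine use and 5 for mitosis, and they were the same after the median shift.

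**Figure D4:**
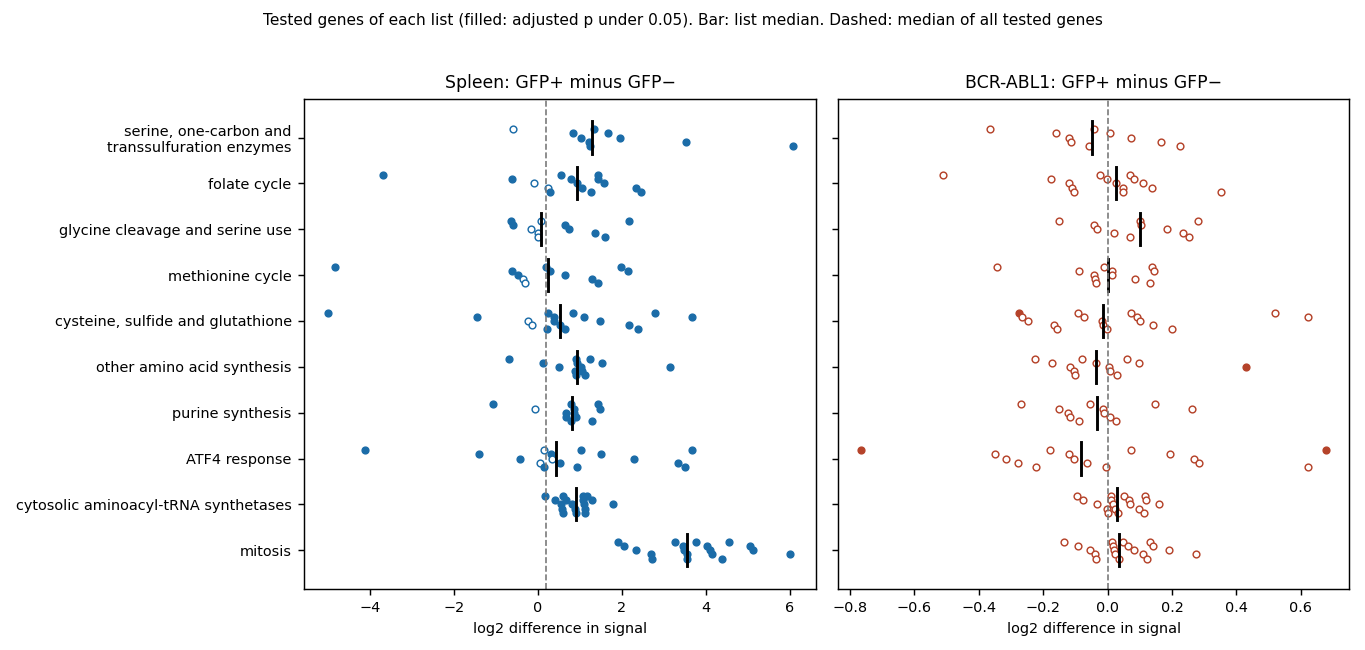
Log2 difference of each tested gene of the member group and of 9 gene lists, GFP-positive minus GFP-negative, in spleen cells (left) and BCR-ABL1 cells (right, on a narrower axis); filled points have an adjusted p under 0.05, bars are list medians and the dashed line is the median of all tested genes. The spleen medians run from 0.068 for glycine cleavage and serine use to 3.56 for mitosis, and the BCR-ABL1 medians lie near 0.

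Promoter sequence from RefSeq (mouse build GRCm38.p6, 250 bases before to 50 after each gene's start) was available for 9 of the 10 members, with 2 windows for Psat1. Both strands were searched for TGATGNAA, the core bound by dimers of ATF4 and C/EBP proteins, and for CACGTG, the E-box bound by MYC and MAX. The first motif was in the windows of 1 member, Asns, and in 3.97% of 32817 windows of the table, and the second in the window of 1 member, Cbs, and in 7.15% of the windows. No member window held both motifs, so no matches overlapped. The stretches are shown because Asns had the largest measured fold of the members with a signal in all groups, and Cbs the probe sets that disagreed. Capitals mark the motif, and both genes lie on the minus strand, at chr6:7693210-7693262 for Asns and chr17:31637399-31637455 for Cbs.
Asns: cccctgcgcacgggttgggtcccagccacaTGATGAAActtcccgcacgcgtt
Cbs: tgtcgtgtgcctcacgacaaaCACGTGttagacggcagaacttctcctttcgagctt
The motif begins 23 bases before the start in Asns and 229 bases before it in Cbs. A match describes these letters and not a site in use, and a window without a match says nothing of the factor.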

How the data were processed

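Transcripts were measured on 8 mouse Affymetrix arrays, 2 in each of 4 groups taken from the sample titles. Per the labels, RNA came from a column kit and was labelled by the manufacturer's standard protocol. The deposited table holds linear signal intensities for 45101 probe sets. GCOS 1.3 is named per the submitters' processing notes, and the authors' way of summarising probes and scaling arrays was not stated there. No scan date or other batch was given, and the number of arrays limits the precision.

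Of the 45101 rows, 64 controls were left out. Arrays were quantile normalized, values under 32 set to 32, and log2 taken. Only probe sets whose mean log2 reached the 40th percentile (5.67, or a signal of 51.0) were tested. Gene symbols came from the platform annotation, in which 34945 probe sets had 1 symbol, 932 several and 9160 none. Names ending in _x_at or _s_at mark probe sets that can detect related transcripts too. A gene is represented by its brightest tested probe set over the 8 arrays. Signals of different probe sets are not compared as levels.

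All 8 arrays were fitted with limma 3.58.1 in R 4.3.3, with 1 mean per group, 4 residual degrees of freedom and a mean-variance trend. Two-sided p-values were adjusted across the 27022 tested probe sets (Benjamini-Hochberg), with a threshold of 0.05, and all adjusted p in the text are from this fit unless another setting is named. Calls over genes keep these adjusted values. "At least" marks a fold against a group at the floor on both arrays. Figures used Python 3.11.15 and matplotlib 3.10.9.

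The members, lists and tests were chosen with earlier results of these data known. Besides the members, the genes named are the 4 called genes of each list with the largest spleen difference, every list gene called in BCR-ABL1 cells, up to 2 bright genes of each list that were not called, the nearest patterns and cell type markers, and a subset of these is printed. Replicate numbers were not treated as pairs, since the labels name no shared batch and give only 2 numbers. Alternatives were the scaling, floor, filter, variance model, probe set choice, array weights, a replicate block and leaving out arrays.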

Additional observations from a re-analysis of the deposited data

Results flagged for a closer look

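For 9 of the 10 members the GFP effect differed between the 2 sources, tested as the difference between the effects (spleen minus BCR-ABL1, log2, limma on 8 arrays). Such a call was common: of all 12223 tested genes, 4983 were called with the larger value in spleen cells and 3407 with the smaller. Among enzymes of serine synthesis it was 0.83 for Phgdh, 2.08 for Psat1 and 1.78 for Psph. Among enzymes of the folate cycle and glycine cleavage it was 1.27 for Shmt1, 1.16 for Shmt2, 1.16 for Mthfd2 and 1.39 for Gldc, where 1 spleen GFP-negative array was at the floor. Cth gave 6.23, with both spleen GFP-negative arrays at the floor, and Asns gave 3.32. The adjusted p of these 9 ran from 2.22e-07 to 0.0018. The spleen GFP-negative arrays, on which each of these values rests, also carried myeloid, T and NK cell transcripts and few mitosis transcripts, and the part of these in the differences was not tested. With 2 arrays a group, no single array could be tested as an outlier.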

How the results depend on the processing

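Across 21 other settings, the spleen difference of each member's brightest probe set kept its sign in all 210 comparisons and its side of the threshold in 208. The 2 changes were Cbs, called with the replicate block (-0.60, adjusted p = 0.0227) and without spleen GFP-negative replicate 1 (-1.04). The difference between the effects changed in 1 of 200 comparisons, again Cbs, and the comparison of GFP-positive groups in 11 of 210, all of them new calls for Phgdh or Cbs; Phgdh there was -0.14 with an adjusted p of 0.0024 under the replicate block. The replicate block changed no other call of these probe sets. Arrays with the same number deviated together over probe sets in all 6 pairings of the 4 groups (r of 0.11 to 0.27), and the labels name no shared batch.

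In BCR-ABL1 cells the small differences turned sign in 5 of 210 comparisons. Phgdh was -0.0053 on the deposited scale. Leaving out 1 array gave -0.036 to 0.050 for Phgdh, -0.17 to 0.059 for Shmt1 and -0.21 to 0.12 for Cbs. Array weights called 1961 probe sets and 3 of the member probe sets, against 756 and 0, and the 4 BCR-ABL1 arrays alone called 270 probe sets. Leaving out 1 array gave 209 to 849 calls and 0 to 2 among the members, with 2 when either spleen GFP-negative array was left out. The cause was not tested.

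With 1 probe set per gene, fewer features were tested: 9426 were called in spleen, 8439 for the difference and 6149 between GFP-positive groups, with 9, 9 and 8 members among them. Gldc in spleen and Cth near or at the floor are limited by signal over background.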
